A study of Mus musculus with 4 samples.

Results

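The secreted Wnt antagonists are proteins that cells release to block Wnt signals outside the cell. Here they comprise the Dickkopf genes Dkk1, Dkk2, Dkk3 and Dkk4, the secreted Frizzled-related genes Sfrp1, Sfrp2, Sfrp4 and Sfrp5, the Wnt inhibitory factor gene Wif1, and Notum. The members were taken by gene symbol from the deposited table, and all 10 were found among its 24972 genes. The tissue was the mandibular dental arch, which carries the lower teeth, dissected from mouse embryos of embryonic day 17.5. There were 2 libraries of Ascl5WT/WT embryos (wild type, numbers 15 and 20) and 2 of Ascl5Mut/Mut embryos (mutant, numbers 18 and 14), which are sample codes and not ages. The study's title puts the question of what an Ascl5 variant does to gene expression in developing lower teeth and jaw, and Ascl5 is a transcription factor gene of the basic helix-loop-helix class. Neither the nature of the variant, nor the strain, nor any pooling of embryos is given in the sources used here. Nothing says that the mutant libraries came from separate embryos, or that any libraries came from separate litters. The p-values rest on differences between these samples, which could be technical in part.

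Wnt ligands bind Frizzled receptors together with the co-receptors Lrp5 and Lrp6, which stabilises beta-catenin and switches on genes through factors of the TCF/LEF family. The Sfrp proteins and Wif1 bind Wnt ligands and keep them from the receptors, Notum is an enzyme that strips Wnt proteins of the lipid they need, and Dkk1, Dkk2 and Dkk4 act on the co-receptors, where Kremen proteins can help them. Wnt signals are needed for tooth germs to progress, and several of the antagonists are themselves induced by Wnt signalling, so that they form negative feedback.

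Because the gene that varies here encodes a basic helix-loop-helix factor, a class that binds E-boxes (the letters CANNTG, which read alike on both strands), the promoters of the members were searched for these letters. RefSeq windows on GRCm38.p6 were at hand for 5 of the 10 members (Dkk1, Dkk2, Sfrp2, Sfrp5 and Wif1), and the 250 bases before the RefSeq start were searched. E-box letters were in 2 of these 5 windows, against 66.2% of all 32851 promoter windows of the same length. The form CAGCTG was in none of the 5 and in 13.0% of all windows. These matches describe letters and are not shown to be bound sites. The 3 stretches below end at the more upstream of the RefSeq and GENCODE starts and carry E-box letters in capitals. They are Wif1 with 2 matches (chr10:121033754-121033959, plus strand), Sfrp5 with 1 match (chr19:42202253-42202502, minus strand), and Sfrp2, the member with the highest level per length, with none (chr3:83766071-83766320, plus strand).
Wif1: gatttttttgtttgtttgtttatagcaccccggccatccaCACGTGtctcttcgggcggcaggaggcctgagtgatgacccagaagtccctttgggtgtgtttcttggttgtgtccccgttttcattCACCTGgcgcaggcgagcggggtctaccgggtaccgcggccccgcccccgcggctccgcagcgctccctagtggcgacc
Sfrp5: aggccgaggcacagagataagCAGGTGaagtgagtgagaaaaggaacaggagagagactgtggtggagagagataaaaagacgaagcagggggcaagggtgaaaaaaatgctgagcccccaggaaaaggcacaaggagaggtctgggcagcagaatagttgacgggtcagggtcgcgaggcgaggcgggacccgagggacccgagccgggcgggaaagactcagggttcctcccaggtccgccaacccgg
Sfrp2: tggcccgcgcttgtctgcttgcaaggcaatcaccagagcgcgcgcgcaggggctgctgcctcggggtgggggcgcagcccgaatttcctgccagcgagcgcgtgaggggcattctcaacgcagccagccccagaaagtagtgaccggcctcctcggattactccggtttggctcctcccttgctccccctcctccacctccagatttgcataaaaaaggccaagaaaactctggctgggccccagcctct

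In Wif1 the match CACGTG begins 166 bases before the GENCODE start, and a further match, CACCTG, begins 79 bases before it. In Sfrp5 the match CAGGTG begins 229 bases before the start. The windows were also searched for letters that TCF/LEF factors are known to favour, namely CTTTG followed by 2 bases that are each A or T, on either strand. Of the 5 members Dkk1 alone held them, with 2 matches, and 14.8% of all windows held at least 1. The 30 bases around them (chr19:30549586-30549615, minus strand) carry the matches in capitals, which begin 117 and 98 bases before the RefSeq start and lie in the untranslated part of the first exon of the GENCODE model, whose start is further upstream.
Dkk1: agCTTTGAAatcccatcccggCTTTGTTgt

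The normalized counts summed to between 22134483 and 22578580 per library, and 17979 genes with a mean of at least 1 were tested, all 10 members among them. For Ascl5 itself the normalized count was 21.8 in wild-type 15, 37.3 in wild-type 20, 10.6 in mutant 18 and 12.1 in mutant 14 (log2 fold change -1.29, limma, adjusted p = 0.9999). Since it is not stated whether the variant changes the transcript's level, this does not check the labels. Over all genes 2 passed an adjusted p of 0.05 (limma, 0.0111%). All 92 marker genes of 13 cell types were in the table and none was at 0 throughout. The odontoblast and osteoblast list summed to 651837 and 643775 in the wild-type libraries and to 532620 and 495080 in the mutant ones, and the dental mesenchyme list to 5606 and 6995 against 4574 and 4912. Both sums were lower in each mutant library, although 2 genes of each list had a higher mutant mean, while the dental epithelium sums (6276 to 14507) overlapped. Col1a1, with a mean of 472550, made up most of the odontoblast and osteoblast sum. The keratinocyte list summed to 119000 and 119444 in the wild-type libraries and to 183909 and 272722 in the mutant ones, all 12 genes with a higher mutant mean, and the salivary gland list to 67.6 and 75.3 against 91.5 and 5253. The sums of the fibroblast and tendon, the neuron and Schwann cell, and the melanocyte lists were also higher in both mutant libraries. The mutant mean was higher in 5 of the 7 fibroblast and tendon genes, and in every neuron and Schwann cell gene and every melanocyte gene. The part of these markers in the values below was not tested. Xist, the RNA that marks an inactive X, had 38619 normalized counts in wild-type 15 and between 5.005 and 12.7 in the other 3 libraries, and the Y-linked gene Ddx3y was listed at 0 in wild-type 15 and was between 2382 and 3027 in the others, so a comparison without wild-type 15 is within 1 sex. The comparison without wild-type 20 sets wild-type 15 alone against both mutant libraries, which differ from it in sex. The genes called in that comparison were Ddx3y, Eif2s3y, Kdm5d, Uty and Xist. In bulk tissue, fewer cells of a type and less RNA per cell cannot be told apart.

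None of the 10 secreted antagonists passed the test between genotypes (limma, adjusted p = 0.9999 for each), and none reached an unadjusted p of 0.05, against 4.27% of all genes tested. Their log2 fold changes (mutant minus wild type, on log2 of the normalized count plus 0.5) lay between -0.26 for Dkk1 and 0.22 for Dkk2. The median was -0.056, beside 0.0025 over all genes tested, and 7 of 10 were below 0, beside 49.4% of all genes. In only 1 of the 10, Dkk3, did the genotypes not overlap, against 27.4% of all genes tested, so the members' share was no higher than the background. For a single gene the smallest two-sided p of an exact permutation test at this size is 0.333. Without wild-type 15, which leaves libraries of 1 sex, the members' median was -0.12. That fit holds 1 wild-type library, assumed to vary as the mutant pair does, and called 0 of 17979 genes, so its p-values say nothing about the members. The 95% intervals of 9 of the 10 differences stayed within a 2-fold change in either direction, and that of Dkk4, which had the lowest normalized counts, did not.

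**Figure D1:**
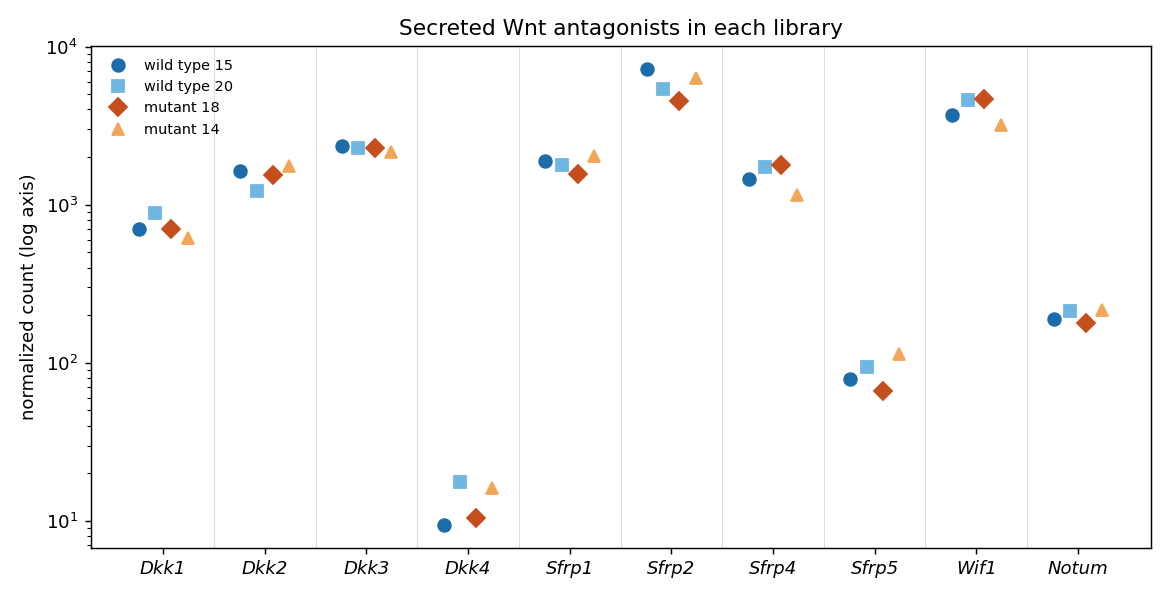
Normalized counts (log axis) of the 10 secreted Wnt antagonists, 1 point per library, wild type in blue and mutant in orange. The points of the genotypes interleave in every gene but Dkk3, whose 4 points lie between 2142 and 2346.

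Sfrp2, a secreted Frizzled-related protein of mesenchyme, lies on chromosome 3 from 83766321 to 83774316 (GRCm38, GENCODE M21). Its normalized count was 7237 in wild-type 15, 5400 in wild-type 20, 4509 in mutant 18 and 6331 in mutant 14. Wild-type 15 was highest and mutant 18 lowest, and mutant 14 lay between the wild-type libraries, so the genotypes overlapped. The log2 fold change was -0.23 (SE 0.21, 95% interval -0.72 to 0.26), or 6319 ± 1299 (SD, n = 2) in wild type against 5420 ± 1288 in mutant. Without mutant 18 it was 0.018. Without wild-type 15, which leaves libraries of the same sex, it was -0.015. A transcript on the opposite strand overlaps an exon of Sfrp2 in GENCODE, and since it is not stated whether reads were counted by strand, its reads cannot be told apart from those of Sfrp2.

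Sfrp1, a Wnt-binding relative (chromosome 8, 23411502 to 23449632), was at 1877 in wild-type 15, 1785 in wild-type 20, 1568 in mutant 18 and 2021 in mutant 14. The mutant libraries were the lowest and the highest of the 4, and the wild-type values lay between them. Its log2 fold change was -0.040 (SE 0.16, 95% interval -0.41 to 0.33), and 0.14 without mutant 18.

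Sfrp4, a family member whose loss in people thins cortical bone (chromosome 13, 19623104 to 19632994), was at 1454 in wild-type 15, 1722 in wild-type 20, 1774 in mutant 18 and 1160 in mutant 14. Here too the mutant libraries were the extremes, but in the opposite order to Sfrp1. Mutant minus wild type, the log2 fold change was -0.14 (SE 0.21, 95% interval -0.63 to 0.35), and 0.16 without mutant 14.

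Sfrp5 (chromosome 19, 42197971 to 42202252), whose promoter holds 1 E-box match, had the lowest level per kilobase of the Sfrp genes, with normalized counts at 78.9 in wild-type 15, 94.5 in wild-type 20, 66.1 in mutant 18 and 113 in mutant 14. The mutant libraries again held the lowest and the highest value. On the log2 scale the fold change was 0.0050 (SE 0.33, 95% interval -0.77 to 0.78), with a range from -0.38 without mutant 14 to 0.39 without mutant 18.

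Wif1, which binds Wnt ligands through its own domain and has 2 E-box matches upstream (chromosome 10, 121033960 to 121100650), was at 3691 in wild-type 15, 4612 in wild-type 20, 4673 in mutant 18 and 3171 in mutant 14. Mutant 18 was just above wild-type 20 and mutant 14 was lowest, so the genotypes overlapped. A log2 fold change of -0.10 resulted (SE 0.21, 95% interval -0.58 to 0.38), and it was 0.060 without wild-type 20 and 0.18 without mutant 14.

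Notum, the Wnt deacylase (chromosome 11, 120653788 to 120661175), was at 190 in wild-type 15, 212 in wild-type 20, 177 in mutant 18 and 216 in mutant 14. The wild-type values lay between the mutant values. Its log2 fold change was -0.034 (SE 0.21, 95% interval -0.53 to 0.46), and it was 0.043 without wild-type 20 and 0.11 without mutant 18. GENCODE places antisense transcripts over its exons, so its value is uncertain in the same way as that of Sfrp2.

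Dkk1, the classical co-receptor antagonist and a target of Wnt signalling whose promoter window holds the TCF/LEF letters shown above (chromosome 19, 30545863 to 30549665), was at 699 in wild-type 15, 880 in wild-type 20, 699 in mutant 18 and 617 in mutant 14. Wild-type 20 was highest and mutant 14 lowest, while wild-type 15 and mutant 18 were at 698.7 and 699.2. This gave a log2 fold change of -0.26 (SE 0.17, 95% interval -0.65 to 0.14), the most negative of the 10 and not past the threshold. It lay between -0.42 without wild-type 15 and -0.090 without wild-type 20. Without wild-type 15 the libraries are of the same sex, and wild-type 20, the only wild-type library left, was above both mutant ones. Scaling each library to the same total moved mutant 18 just below wild-type 15, so that the genotypes of Dkk1 no longer overlapped and 2 of the 10 members were apart instead of 1.

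Dkk2, which can act on the same co-receptors (chromosome 3, 132085292 to 132180304), was at 1623 in wild-type 15, 1221 in wild-type 20, 1542 in mutant 18 and 1748 in mutant 14. Wild-type 20 stood below the other 3 libraries, and wild-type 15 lay between the mutant values. This gave a log2 fold change of 0.22 (SE 0.17, 95% interval -0.17 to 0.62). It lay between 0.017 without wild-type 20 and 0.43 without wild-type 15. Leaving out wild-type 15 keeps libraries of the same sex, among which wild-type 20, the only wild-type library left, was below both mutant ones.

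Dkk3, the divergent Dickkopf that does not act on the Lrp co-receptors as the others do (chromosome 7, 112116017 to 112159057), was the steadiest member. It was at 2346 in wild-type 15, 2289 in wild-type 20, 2268 in mutant 18 and 2142 in mutant 14. Each mutant library was under each wild-type library, but the highest library was only 1.10 times the lowest. The log2 fold change was -0.073 (SE 0.13, 95% interval -0.37 to 0.22), and it lay between -0.11 and -0.031 with any 1 library left out.

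Dkk4, a Wnt target of ectodermal placodes (chromosome 8, 22624043 to 22627547), had the lowest normalized counts of the members, at 9.45 in wild-type 15, 17.7 in wild-type 20, 10.5 in mutant 18 and 16.2 in mutant 14. The wild-type libraries were the lowest and the highest. The log2 fold change was 0.011 (SE 0.56, 95% interval -1.29 to 1.32), so that a change of up to about 2.49-fold higher or to 0.408 of the wild-type level lies within the interval. It ranged from -0.43 without wild-type 15 to 0.45 without wild-type 20.

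**Figure D2:**
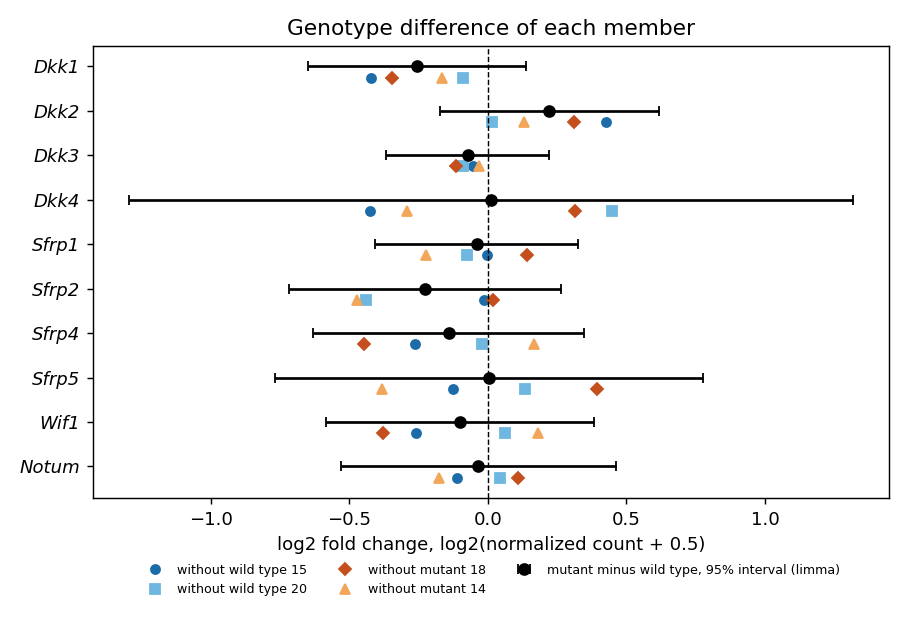
Log2 fold change of each member (mutant minus wild type, horizontal axis) with its 95% interval from limma in black, and the value with 1 library left out in colour below it. All 10 intervals cover 0, and the value with a library left out crosses 0 in 7 genes.

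In every member the libraries of at least 1 genotype differed by more than the genotypes did. For none of the 10 members was the genotype difference larger than both within-genotype differences on the log2 scale, against 17.2% of all genes tested. In wild type the libraries differed by 0.036 (Dkk3) to 0.87 (Dkk4), and in mutant by 0.082 (Dkk3) to 0.78 (Sfrp5). By Xist and Ddx3y the wild-type libraries also differ in sex, which cannot be told apart from other differences between them. For Dkk1 and Dkk2 only the wild-type difference was larger than that between genotypes. In 6 of the 10 the highest and the lowest library had the same genotype, against 37.9% of all genes tested. These were Sfrp1, Sfrp4, Sfrp5, Wif1 and Notum, where both extremes were mutant, and Dkk4, where both were wild type. Mutant 14 was the highest library for 4 members (Dkk2, Sfrp1, Sfrp5 and Notum) and the lowest for another 4 (Dkk1, Dkk3, Sfrp4 and Wif1). Among the marker sums, this library also held the highest for keratinocytes, salivary gland, neuron and Schwann cell, and melanocyte. It held the lowest for odontoblast and osteoblast, chondrocyte, skeletal muscle, endothelial and macrophage. The skeletal muscle list summed to 86706 in mutant 14, 162913 in mutant 18, and 144045 and 107502 in wild-type 15 and 20. The part of the marker lists in the members' values was not tested.

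**Figure D3:**
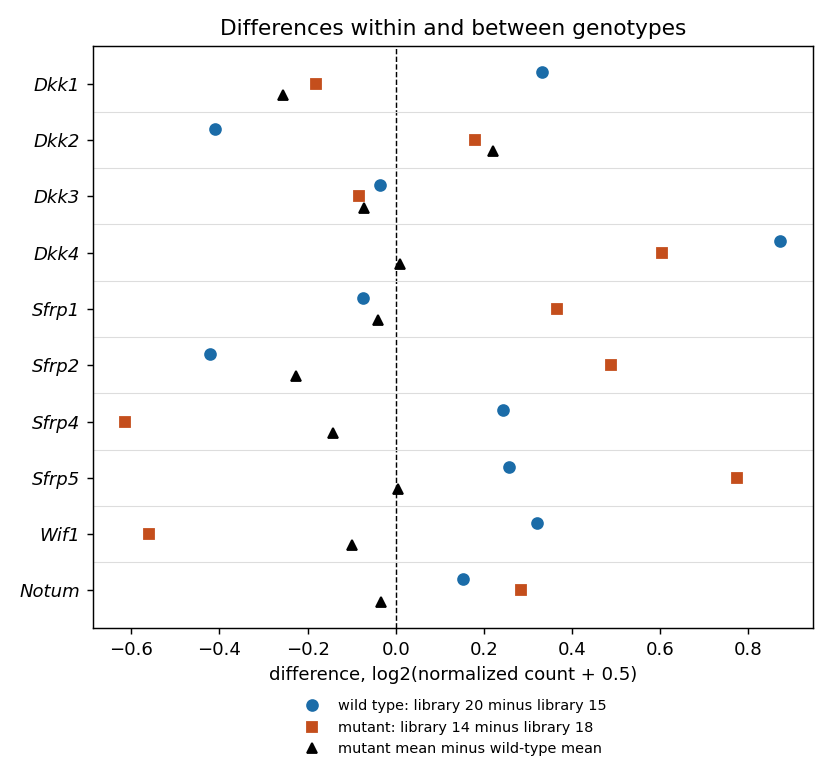
Differences on the log2 scale for each member: wild-type library 20 minus 15 (blue circles), mutant library 14 minus 18 (orange squares) and mutant mean minus wild-type mean (black triangles). In every row at least 1 within-genotype difference is farther from 0 than the black triangle. The wild-type libraries also differ in sex, so the blue circles hold that difference too.

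Levels of different genes were compared per kilobase of joined exons. Sfrp2 was highest, at 2726 ± 547 normalized counts per kilobase (SD over the 4 libraries), followed by Wif1 at 1663 ± 301 and Dkk3 at 673 ± 25.7. The ranges of these 3 over the libraries did not touch each other or that of the next gene. Sfrp1 (415 ± 43.4), Dkk2 (414 ± 60.7), Sfrp4 (366 ± 67.6) and Dkk1 (298 ± 45.9) followed with ranges that overlapped from 1 neighbour to the next, so their order is not fixed by these libraries, although Sfrp4 was above Dkk1 in each of the 4. Notum (82.6 ± 7.59), Sfrp5 (46.4 ± 10.8) and Dkk4 (10.2 ± 3.12) came last with ranges apart. Sfrp2 was therefore at the top and Dkk4 at the bottom in both genotypes.

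**Figure D4:**
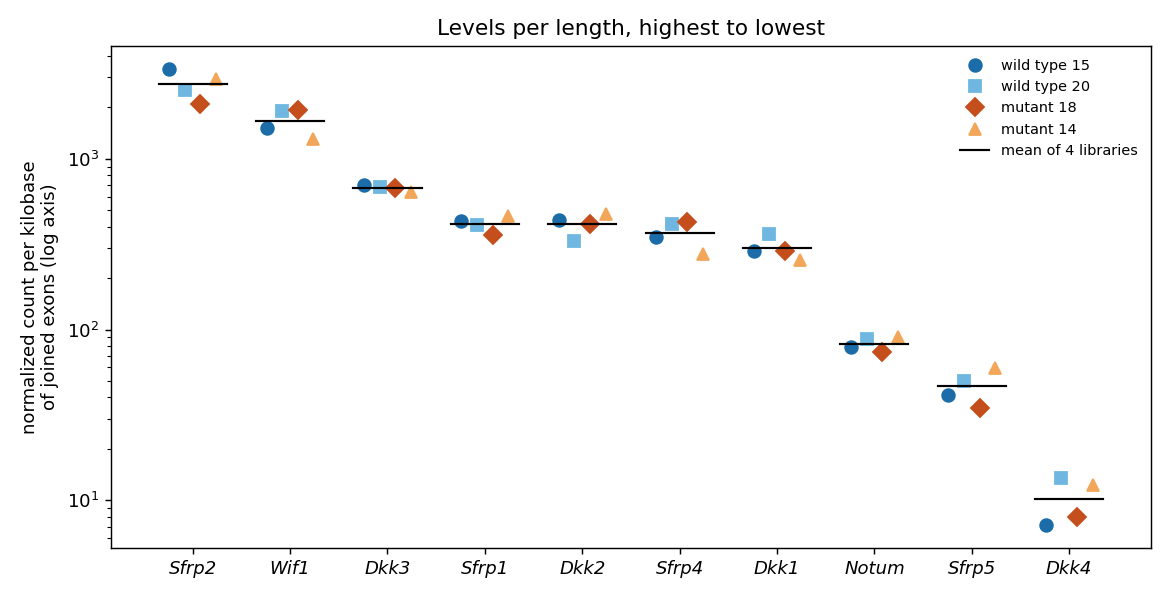
Normalized counts per kilobase of joined exons (log axis) for the 10 members from the highest to the lowest mean, 1 point per library and a black line at the mean of the 4. Sfrp2, Wif1 and Dkk3 stand apart at the top, the 4 genes from Sfrp1 to Dkk1 overlap with their neighbours, and Dkk4 is lowest.

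Transcripts of antagonists that bind the ligand made up most of the summed level. As a share of the summed level per kilobase of the 10 members, Sfrp2 alone took 46.6% in wild-type 15, 37.1% in wild-type 20, 33.3% in mutant 18 and 45.2% in mutant 14. Wif1 took 21.1%, 28.1%, 30.6% and 20.1% in the same order, so the libraries with the larger Sfrp2 share had the smaller Wif1 share. Shares of 1 total are not independent, and a larger Sfrp2 share by itself lowers the shares of the other members. The 4 Dkk genes together stayed between 19.8% and 22.0%, and Notum between 1.10% and 1.38%. The summed level was 7212 (wild-type 15), 6753 (wild-type 20), 6299 (mutant 18) and 6512 (mutant 14). Both mutant sums were the lower ones, but without Sfrp2 the sums were 3850, 4245, 4204 and 3572, and the genotypes overlapped. The 19 Wnt ligand genes summed to 1764 ± 295 on the same scale, so the antagonists' mean sum was 3.80 times that of the ligands.

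Among 83 other Wnt pathway genes, 82 were tested and none passed (limma, lowest adjusted p = 0.310), while 2 higher and 5 lower reached an unadjusted p of 0.05, beside 3.12% higher and 1.15% lower of all genes tested. Genotypes did not overlap in 27 of the 82, beside 27.4% of all genes. Of 18 tested ligands 0 passed, and the median log2 fold change was 0.074. Wnt3, a ligand of oral and dental epithelium, had the smallest p of these, with 82.5 in wild-type 15, 56.5 in wild-type 20, 127 in mutant 18 and 164 in mutant 14 (log2 fold change 1.07, 95% interval 0.38 to 1.77, adjusted p = 0.685). Wnt5b had a log2 fold change of -0.42.

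Receptors and co-receptors, the proteins on which the antagonists converge, had 0 of 17 passing and a median of -0.13, with 12 below 0. The co-receptors Lrp5 and Lrp6, which Dkk1 binds, had log2 fold changes of -0.15 and -0.029, and the Dickkopf receptor Kremen1 one of -0.19. Kremen1 was lower in both mutant libraries, at 2835 and 2923 against 3508 and 3096. The smallest p values belonged to Fzd1 (log2 fold change -0.39) and Fzd10 (0.53), with an adjusted p of 0.9999 each (limma). With 1 library left out Fzd1 lay between -0.56 without wild-type 20 and -0.23 without wild-type 15. Fzd10 had 592 in mutant 14 and between 294 and 330 in the other 3 libraries, and its log2 fold change was 0.11 without mutant 14 and 0.95 without mutant 18. Of the 10 genes of Wnt secretion and the R-spondin axis, which raises receptor levels, 0 passed and the median was -0.042. Rspo4, a secreted enhancer of Wnt signals, had the largest difference of the list, with 157 in wild-type 15, 201 in wild-type 20, 75.2 in mutant 18 and 56.9 in mutant 14. Its log2 fold change was -1.44 (95% interval -2.08 to -0.80, adjusted p = 0.325), and Rspo2 was at -0.40.

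The other extracellular and membrane inhibitors had 0 of 12 passing and a median of 0.022. Frzb, a further Frizzled-related protein of cartilage, had 1846 in wild-type 15, 2146 in wild-type 20, 1663 in mutant 18 and 1362 in mutant 14 (log2 fold change -0.40, 95% interval -0.77 to -0.042, limma, adjusted p = 0.9999). The log2 fold change of Frzb lay between -0.55 without mutant 18 and -0.26 without mutant 14. It was the Sfrp relative with the largest difference, and the chondrocyte list was also lower in mutant, with sums of 38552 and 33661 against 55937 and 43745. The part of these markers in the Frzb values was not tested. Sostdc1, an inhibitor of Wnt and BMP signals in tooth germs, had 1649 and 2067 in the wild-type libraries against 1372 and 1489 in the mutant ones (log2 fold change -0.37, 95% interval -0.73 to -0.012, limma, adjusted p = 0.9999). Its log2 fold change lay between -0.53 without wild-type 15 and -0.21 without wild-type 20. Sost, the sclerostin gene, had 132 and 109 against 147 and 193 (0.48). Dkkl1, related to Dickkopf genes by sequence, had 138 and 110 against 206 and 414 (log2 fold change 1.24, 95% interval 0.46 to 2.02, limma, adjusted p = 0.659). The log2 fold change of Dkkl1 lay between 0.74 without mutant 14 and 1.74 without mutant 18. The highest Dkkl1 and Wnt3 values were in mutant 14, the library with the highest keratinocyte sum, whose part in them was not tested.

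Genes that respond to Wnt signalling had 0 of 10 passing and a median of -0.12. The feedback gene Axin2, induced in most tissues with active beta-catenin, overlapped, with 881 in wild-type 15, 668 in wild-type 20, 628 in mutant 18 and 829 in mutant 14 (log2 fold change -0.088). Lef1 (-0.18), a factor of the TCF/LEF family, and the feedback gene Nkd1 (0.21) also overlapped. For Nkd1 the log2 fold change was 0.0049 without mutant 14 and 0.018 without wild-type 20. Tcf7, another factor of that family, had 1762 and 1905 in the wild-type libraries against 1109 and 1065 in the mutant ones (log2 fold change -0.75, 95% interval -1.06 to -0.45, adjusted p = 0.310), and Bambi was at -0.31. Of the 15 intracellular transducers 0 passed, with a median of -0.095 and folds from -0.16 to 0.064. Dvl2 and Dvl3, which relay the signal from Frizzled receptors, had the smallest p (log2 fold changes -0.16 and -0.16).

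**Figure D5:**
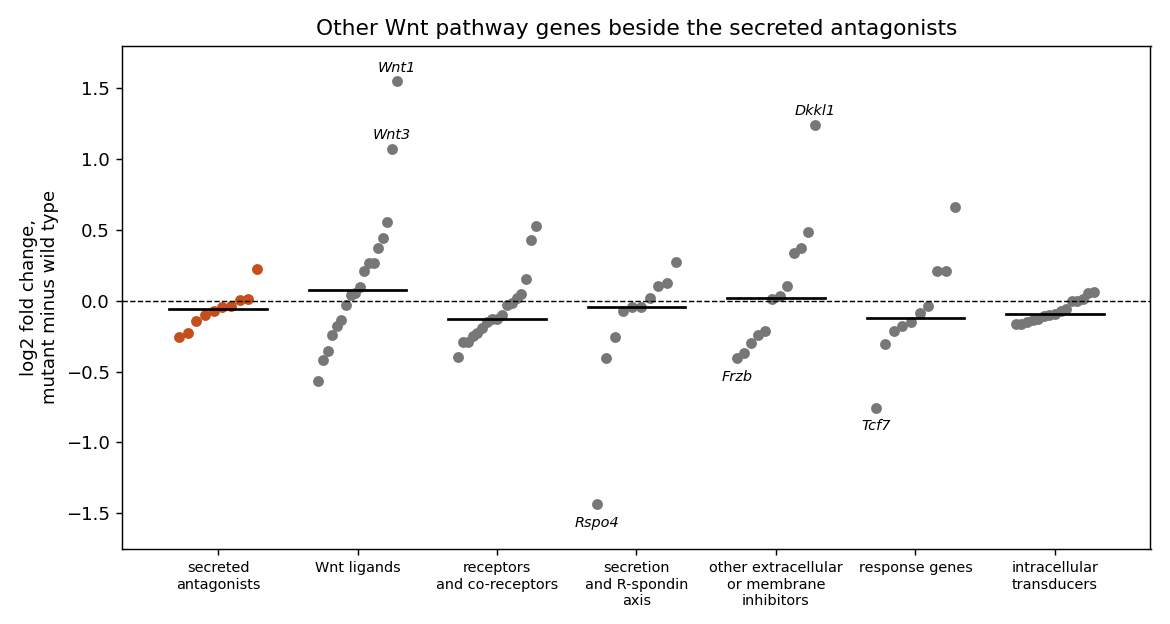
Log2 fold change (mutant minus wild type) of each gene, with the 10 secreted antagonists in orange, 6 lists of other Wnt pathway genes in grey and a black line at each median. The antagonists lie between -0.26 and 0.22, while Rspo4, Tcf7, Wnt3 and Dkkl1 lie farther out, and Wnt1 rests on fewer than 5 normalized counts per library.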

How the data were processed

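Values were the normalized counts (a signal per gene and library) that the authors deposited, with DESeq2 and mm10 named, without versions or roles, in the submitters' processing notes. No aligner, counter, strand setting or annotation is named (not given in the sources used here). RNA was polyadenylated and libraries kept strand, per the labels' protocols. The planned limma test was used: log2(value + 0.5) for every gene averaging 1 or more, genotype fitted with limma 3.58.1 (R 4.3.3) with a mean-variance trend over all 4 libraries, Benjamini-Hochberg adjustment over all genes and a threshold of 0.05. The fit was tested on simulated data, with changes larger than any member showed. That test does not cover differences as small as theirs. Gene models were GENCODE M21 and promoters RefSeq, both on GRCm38, the assembly that mm10 denotes. Members and lists were chosen with earlier results of these data known. Named genes were the members, Ascl5, the 2 of smallest p in each list and 9 fixed Wnt genes, with nearest profiles for 3 members. Wnt1 was labelled, and Xist, Ddx3y, Eif2s3y, Kdm5d and Uty were named, after their values were seen. Alternatives were scaling, filter, pseudocount, variance settings, gene length and each library left out. Figures were drawn with matplotlib 3.10.9.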

Additional observations from a re-analysis of the deposited data

How the results depend on the processing

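No paired analysis was possible because the genotypes share no replicate number. Over 14 alternatives none of the 10 members passed the threshold, and the lowest adjusted p was 0.796 (Sfrp4, limma). The members' median log2 fold change lay between -0.17 without mutant 14 and 0.064 without mutant 18, and was -0.086 over the 8 members with a mean of at least 100, a limit chosen after seeing the data. Dkk1, Dkk2 and Dkk3 kept their sign in all 14. Leaving out 1 library, which leaves 1 residual degree of freedom, log2 fold changes ranged from -0.43 to 0.45 for Dkk4, -0.22 to 0.14 for Sfrp1, -0.47 to 0.018 for Sfrp2, -0.45 to 0.16 for Sfrp4, -0.38 to 0.39 for Sfrp5, -0.38 to 0.18 for Wif1 and -0.18 to 0.11 for Notum. They ranged from -0.35 to 0.022 for Dvl3, -0.34 to 0.039 for Lrp5, -0.15 to 0.090 for Lrp6, -0.29 to 0.11 for Axin2 and -0.46 to 0.10 for Lef1, and, with the sign kept, from -0.29 to -0.10 for Kremen1, 0.29 to 0.68 for Sost, -0.62 to -0.22 for Wnt5b, -0.54 to -0.27 for Rspo2, -0.49 to -0.12 for Bambi, -0.30 to -0.027 for Dvl2 and 0.0049 to 0.42 for Nkd1. Sfrp5 also turned to -0.0026 with each library scaled to the same sum without the 5% highest genes. Tcf7, Rspo4 and Wnt3 kept their sign with a library left out, from -0.81 to -0.70, -1.64 to -1.24 and 0.80 to 1.34. Scaling to the same total gave 2 members without overlap in place of 1. Genes called over all genes numbered 1 with no filter, 4 with pseudocount 1, 1 without the trend, 4 with robust shrinkage and 0 to 5 with a library left out. The fits without wild-type 15, mutant 18 or mutant 14 called no gene at all, so an absence of calls there says nothing about stability. List medians with a library left out ranged from -0.15 to 0.35 for ligands, -0.14 to 0.023 for secretion and the R-spondin axis, -0.13 to 0.061 for response genes, -0.22 to -0.046 for receptors, -0.052 to 0.079 for other inhibitors and -0.23 to 0.046 for intracellular transducers, so that the sign turned in 5 of the 6 lists and not for receptors. The cause of these shifts was not tested. Only 2 libraries per genotype limit the precision, most of all for Dkk4.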

Other observations

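Genes with the most similar course over the 4 libraries were found for 3 members, by the root mean square distance between log2 values centred on each gene's mean, among 13519 tested genes with a mean of at least 50. Nearest to Dkk3 were B3gnt8 (distance 0.0023), Fbxo31 (0.0029) and Qtrt2 (0.0064), and 738 genes lay within 0.05 of it, so a flat course such as that of Dkk3 was common. Nearest to Sfrp2 were Kcnd1 (0.017), Dtx3 (0.017) and Spsb4 (0.021), with 25 genes within 0.05. Dtx3 was at 2336, 1753, 1451 and 1992 normalized counts in wild-type 15 and 20 and mutant 18 and 14, the same order of libraries as Sfrp2. Nearest to Wif1 were Hexa (0.015), Hsd3b7 (0.023) and Cyth4 (0.025), with 18 genes within 0.05. Hexa, which encodes a lysosomal enzyme subunit, was at 2964, 3716, 3828 and 2526 in the same library order, highest in mutant 18 and lowest in mutant 14 as Wif1 was. With 4 libraries many genes can share a course, and these are descriptions only. Why these genes shared a course was not tested.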
